A study of Mus musculus with 66 samples.

Results

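Adult lungs of mice without Nrf2 were compared with lungs of wild-type mice at postnatal day 42 (PND42). The 6 samples are the 3 titled as knockout (Nrf2-/-) and the 3 titled as wild type (Nrf2+/+) at that age, out of 66 samples in all, which cover 2 genotypes at 11 ages from embryonic day 13.5 (E13.5) onwards with 3 samples in each of the 22 groups. Each of the 6 samples is total RNA from the homogenate of 1 whole lung, hybridised to a one-colour Affymetrix mouse array. All mice, of both genotypes, were fed the AIN-76A diet on a 12-hr light cycle, and no agent was given. The labels give the genotypes no further allele or strain name and the mice no sex. A lung homogenate holds all the cells of the organ, so fewer cells of a type and less RNA per cell cannot be told apart in any value given here.

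Nrf2, encoded by Nfe2l2, is a transcription factor that the adaptor Keap1 holds at a low level by handing it to a ubiquitin ligase. When electrophiles or oxidants modify Keap1, Nrf2 accumulates, pairs with a small Maf protein and binds the antioxidant response element (ARE) of genes that make and use glutathione, regenerate thioredoxin, supply NADPH and break down foreign compounds. In the lung these enzymes are known mainly from airway epithelium, alveolar epithelium and macrophages.

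The ARE is the sequence Nrf2 is known to bind, so promoter stretches that hold its core are shown first, for 3 of the targets that fell at PND42 and 1 that did not pass the test. Binding was not measured. The core of the element was searched as TGACNNNGC on both strands (on the reverse strand it reads GCNNNGTCA) in the RefSeq promoter windows of mouse build GRCm38.p6, which run from 250 bases before to 50 bases after a gene's start. Capitals mark the core. Gsta3, a glutathione S-transferase, is at chr1:21240404-21240532 on the plus strand, and its core begins 121 bases before the start. Txnrd1, the cytosolic thioredoxin reductase, is at chr10:82859054-82859182 on the plus strand, with the core on the opposite strand 92 bases before the start. Me1, the cytosolic malic enzyme, is at chr9:86695912-86695980 on the minus strand, with a core that spans the start. Gclm, the modifier subunit of glutamate-cysteine ligase, is at chr3:122245363-122245491 on the plus strand, with the core on the opposite strand 134 bases before the start.
Gsta3: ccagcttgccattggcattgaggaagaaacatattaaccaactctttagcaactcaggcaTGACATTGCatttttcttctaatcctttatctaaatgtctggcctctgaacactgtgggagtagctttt
Txnrd1: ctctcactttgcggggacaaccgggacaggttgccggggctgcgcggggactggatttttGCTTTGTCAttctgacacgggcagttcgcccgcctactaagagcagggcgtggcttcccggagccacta
Me1: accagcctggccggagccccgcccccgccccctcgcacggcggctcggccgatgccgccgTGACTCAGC
Gclm: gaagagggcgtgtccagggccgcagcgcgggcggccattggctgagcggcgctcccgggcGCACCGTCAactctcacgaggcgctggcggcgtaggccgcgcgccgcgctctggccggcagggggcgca

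Of 32851 promoter windows, 12.4% held the core at least once. Per gene, which counts a gene with any of its windows, the share was 16.2% of the 14452 tested genes that have an entry. It was 51 of 238 genes that fell at PND42 (21.4%) and 90 of 485 genes that rose (18.6%). Among the known Nrf2 targets with an entry it was 9 of 31, and among those that fell 4 of 8 (Gsta3, Txnrd1, Me1 and Pgd). The windows of Gpx2, Aox1, Ces1g and Gstm1 did not hold these letters. A match describes the sequence only, and elements further from the start were not searched.

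The values below are log2(signal + 16) after quantile normalization of the arrays, called log2 levels. A difference is the knockout mean minus the wild-type mean on that scale, given with its standard error. Every adjusted p is from limma fitted to all 66 arrays, adjusted by Benjamini-Hochberg over the 45037 probe sets tested, and a gene rose or fell where its adjusted p was under 0.05. Each gene is represented by its brightest probe set over all samples, which gives 18193 genes. Nothing in the labels names the litters, and replicate numbers did not pair the samples.

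The arrays resembled each other closely, with correlations of 0.977 to 0.980 between wild-type lungs, 0.971 to 0.972 between knockout lungs and 0.963 to 0.970 between genotypes. One RNA measure differed between the genotypes. The log2 ratio of the 3′ to the 5′ actin control probe sets, which is higher where less full-length transcript is labelled, was 0.54, 0.54 and 0.58 in the wild-type lungs and 0.77, 1.01 and 0.93 in the knockout lungs, with no overlap. The same ratio for Gapdh overlapped between the genotypes, at 0.45, 0.06 and 0.22 in wild type and 0.43, 0.53 and 0.66 in knockout. Calls that were lost when the actin ratio was added as a covariate are named where they occur. Each genotype held 1 lung with high Xist and low Eif2s3y signal, the female pattern, so the sexes were balanced. Lung markers stood near the top of the scale in both genotypes: Sftpc, surfactant protein C of type 2 cells, was between 14.76 and 14.83 in all 6 lungs, and Ager, a type 1 cell marker, between 14.83 and 14.90.

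**Figure D1:**
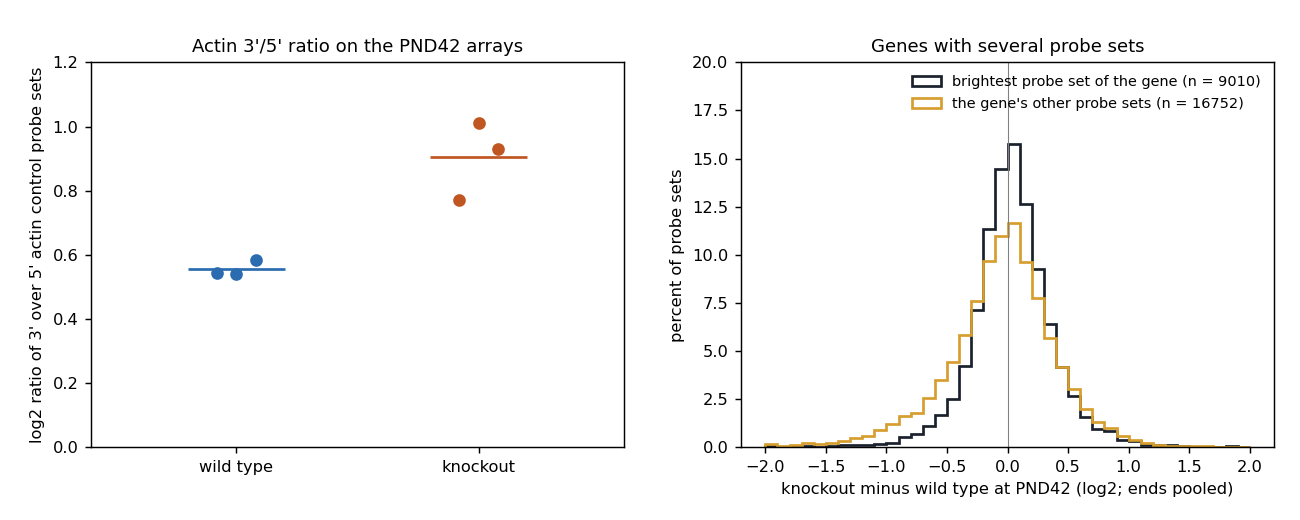
Left, the log2 ratio of 3′ over 5′ actin control signals on each PND42 array (points) with the mean of each genotype (lines); the 3 knockout arrays (0.77 to 1.01) lie above the 3 wild-type arrays (0.54 to 0.58). Right, the knockout minus wild-type difference (log2) as a percentage of probe sets, for genes with several probe sets: the 9010 brightest probe sets have a median of 0.035 and the 16752 other ones a median of -0.019 with a longer lower tail.

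At PND42, 2557 of 45037 probe sets (5.68%) differed between the genotypes, 1109 higher (2.46%) and 1448 lower (3.22%) in the knockout. Counted over genes, 872 of 18193 (4.79%) differed. Of these, 582 rose (3.2% of all genes) and 290 fell (1.59%). At least a 2-fold change was seen for 112 of the genes that rose and 71 of those that fell. The balance between rises and falls therefore turned on the probe sets counted. The brightest probe sets of the 9010 genes with several rose 341 times and fell 213 times, whereas their 16752 dimmer probe sets rose 401 times and fell 972 times. In 77 genes 1 probe set rose and another fell. Of the 213 genes whose brightest probe set fell, 61 had a further one that fell, and of the 341 whose brightest rose, 51 had a further one that rose. With the actin ratio as a covariate the gene counts were 384 that rose and 167 that fell.

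Single lungs decided part of the calls. Of the 78 called genes named here, 43 kept the call whichever 1 of the 6 lungs was left out and 35 lost it without at least 1. Cebpa, Fads2 and Pdia6 lost it when any 1 of the 6 was left out, and Fn1, Lpcat1, Glo1, Tfpi, H2-DMb2, Gsr, Col1a2, Cpox and Sdf2l1 with any of 4 or 5 of them left out. Leaving out wild-type replicate 1, 2 or 3 ended the call of 16, 21 and 21 genes, and leaving out knockout replicate 1, 2 or 3 that of 15, 21 and 20. Marco lost it without wild-type replicate 2 or 3 or knockout replicate 2, Pgd without wild-type replicate 1 or 2 or knockout replicate 2 or 3, and Gstm1 without wild-type replicate 1 or 2 or knockout replicate 1 or 3. Cx3cr1 lost it without wild-type replicate 1 or knockout replicate 2, Hc without those or wild-type replicate 3, Cyp1a1 without wild-type replicate 1 and Lsamp without knockout replicate 3.

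Nfe2l2 itself had log2 levels of 11.70, 11.66 and 11.52 in the wild-type lungs and 6.16, 5.66 and 5.53 in the knockout lungs. All 3 knockout lungs were far below all wild-type lungs, which matches the labels. The difference was -5.85 ± 0.34 (adjusted p = 3.2e-18, limma), a 57.5-fold lower value of signal + 16. Over the other ages the mean difference was -6.27, and the test of PND42 against those ages gave an adjusted p of 0.65. A second, dim probe set for Nfe2l2 differed by 0.04 ± 0.31 (adjusted p = 0.98), and which part of the transcript either probe set reads was not analysed here.

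Genes of the proteins that control or partner Nrf2 were mostly without a call. Of 16 measured, Nfe2l2 fell and Btrc rose, while 14 did not pass the test. Over all genes 3.2% rose and 1.59% fell. Btrc, the substrate receptor of a ubiquitin ligase that can mark Nrf2 independently of Keap1, was at 6.62, 6.85 and 6.56 in wild type and 7.42, 7.75 and 7.95 in knockout. These groups did not overlap, and the difference was 1.03 ± 0.17 (adjusted p = 4.7e-05, limma), though only 1 of the gene's 5 probe sets rose. Keap1 differed by 0.09 (adjusted p = 0.83), Cul3, the scaffold of the Keap1 ligase, by -0.22 (adjusted p = 0.25), and the partner Mafk by 0.29 (adjusted p = 0.36). Mafk lay higher in all 3 knockout lungs, at 10.22, 10.08 and 10.18 against 9.80, 9.87 and 9.95, without reaching the threshold. The related factors Nfe2l1 and Bach1 differed by -0.03 and -0.07 with overlapping groups.

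Among 37 measured genes listed as known Nrf2 targets, 10 fell and 0 rose, and the median difference was -0.23 against 0.05 over all genes. Of all genes 1.59% fell and 3.2% rose. In 16 of the 37 all 3 knockout values lay below all 3 wild-type values, a pattern that 10.1% of all genes showed; the reverse was seen in 1, against 16.3% of all genes. The 10 genes span glutathione use and synthesis, peroxide removal, thioredoxin, NADPH supply and the oxidation or hydrolysis of foreign compounds. The other 27 genes of the list were not called.

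**Figure D2:**
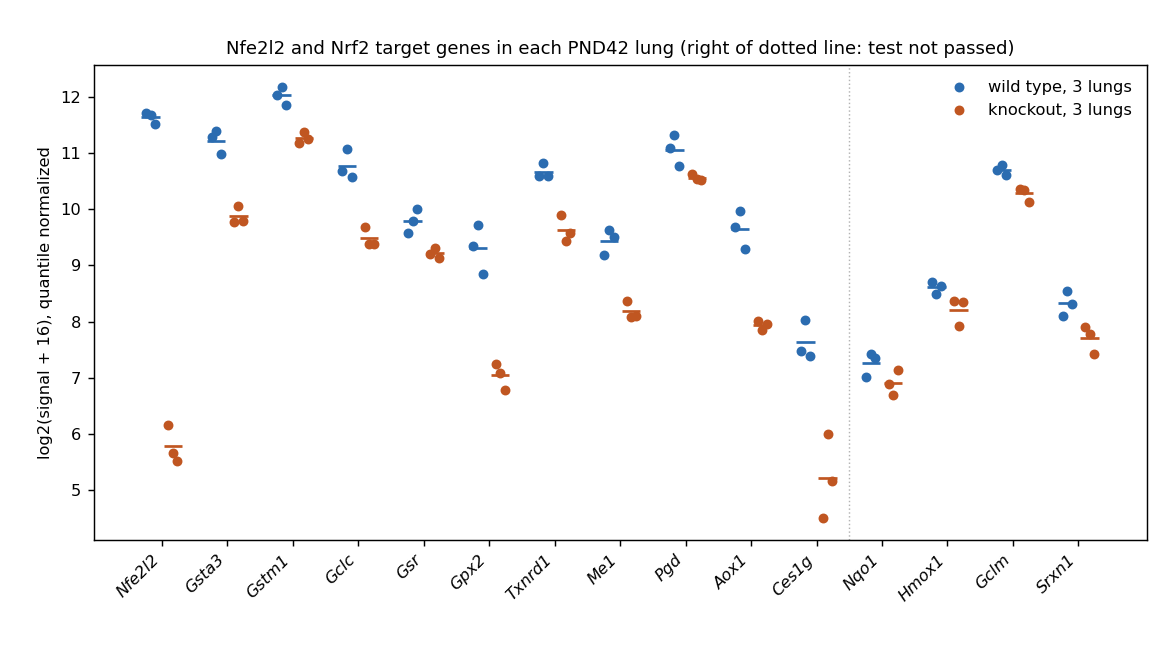
Log2(signal + 16) of Nfe2l2 and 14 Nrf2 target genes in each PND42 lung; points are the 3 wild-type and 3 knockout lungs and lines are group means. Left of the dotted line all genes passed the test and no knockout point reaches a wild-type point (for Gpx2, 6.78 to 7.25 against 8.85 to 9.72); right of it the test was not passed and the groups are close or overlap.

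The glutathione S-transferases join glutathione to electrophiles so that they can be exported. Gsta3 was at 11.27, 11.39 and 10.97 in wild type and 9.77, 10.06 and 9.78 in knockout, without overlap, and fell by 1.34 ± 0.37 (adjusted p = 0.018, limma). Its second probe set differed by -0.76 (adjusted p = 0.22), and the call was lost without wild-type replicate 1 or 2 or knockout replicate 1 or 3. Gstm1 was at 12.02, 12.18 and 11.86 in wild type and 11.18, 11.37 and 11.25 in knockout and fell by 0.75 ± 0.21 (adjusted p = 0.021); 3 of its 4 probe sets fell. The brightest Gstm1 probe set carries the suffix that marks shared probes, so related mu-class transcripts may add to it. With the actin covariate the Gstm1 call was lost. These were the only falls among 23 measured transferases, and 1.59% of all genes fell. Gsta4 and Gstp1 differed by 0.07 and -0.10 with overlapping groups. Gstt1 differed by -1.06 (adjusted p = 0.11) and Gsta2 by 0.79 (adjusted p = 0.094), both without overlap.

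Glutathione is built by glutamate-cysteine ligase, whose catalytic subunit is Gclc, and is returned to its reduced form by glutathione reductase, Gsr. Gclc stood at 10.67, 11.07 and 10.56 in the wild-type lungs and 9.68, 9.37 and 9.38 in the knockout lungs. Every knockout lung was lower, and the fall of 1.29 ± 0.13 (adjusted p = 4.8e-10, limma) appeared in both probe sets. Gclm, the modifier subunit, was lower in all 3 knockout lungs, at 10.36, 10.33 and 10.13 against 10.69, 10.78 and 10.61, but its difference of -0.42 ± 0.14 missed the threshold (adjusted p = 0.077). Gsr was at 9.57, 9.78 and 10.01 in wild type against 9.20, 9.30 and 9.13, with no overlap. It fell by 0.57 ± 0.17 (adjusted p = 0.029), again in both probe sets, and lost the call with the actin covariate. The cystine importer Slc7a11 was dim and differed by 0.20 (adjusted p = 0.85). Of 22 genes of glutathione synthesis and recycling 3 fell and 0 rose, and 8 of the 22 had all knockout values below all wild-type values. Over all genes 1.59% fell, 3.2% rose and 10.1% had all knockout values below all wild-type values.

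Peroxides are removed by glutathione peroxidases and by the thioredoxin and peroxiredoxin system. Gpx2, the epithelial selenium-dependent glutathione peroxidase, had the second largest fall of the listed targets. It was at 9.34, 9.72 and 8.85 in wild type and 7.25, 7.09 and 6.78 in knockout, and fell by 2.26 ± 0.43 (adjusted p = 0.00028, limma). Txnrd1 was at 10.58, 10.82 and 10.59 in wild type and 9.89, 9.43 and 9.58 in knockout. The groups were clearly apart, and Txnrd1 fell by 1.03 ± 0.13 (adjusted p = 2.1e-07) in the brightest of its 3 probe sets. Srxn1, which repairs over-oxidised peroxiredoxins, differed by -0.62 (adjusted p = 0.13) in its brightest probe set, and 1 of its 3 others fell. Msrb1, a selenoprotein that reduces methionine sulfoxide, rose by 0.48 ± 0.14 (adjusted p = 0.024). Over 27 measured genes of peroxide and superoxide removal, 2 fell, 1 rose and the median difference was 0.03. Of all genes 1.59% fell and 3.2% rose, with a median of 0.05.

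NADPH powers these reductases. Me1, which makes NADPH from malate, was at 9.18, 9.62 and 9.50 in wild type and 8.37, 8.09 and 8.10 in knockout and fell by 1.25 ± 0.15 (adjusted p = 3.0e-08, limma). Pgd, an NADPH-producing enzyme of the pentose phosphate pathway, was at 11.08, 11.31 and 10.77 against 10.62, 10.53 and 10.52. Neither gene's groups overlapped, although for Pgd the nearest lungs were close, and Pgd fell by 0.50 ± 0.14 (adjusted p = 0.015). In Pgd 3 of 4 probe sets fell. Other enzymes of the same pathway had no call: Taldo1 differed by -0.22 (adjusted p = 0.27) and Tkt by -0.01 (adjusted p = 0.99).

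Aldehyde oxidases and carboxylesterases act on aldehydes and on ester drugs and lipids. Aox1 was at 9.67, 9.96 and 9.29 in wild type and 8.01, 7.85 and 7.96 in knockout and fell by 1.70 ± 0.26 (adjusted p = 5.5e-06, limma). Its paralog Aox3 was at 10.92, 10.93 and 10.84 against 9.90, 9.78 and 9.28 and fell by 1.25 ± 0.26 (adjusted p = 0.0012). Both oxidases thus lay lower in every knockout lung. Ces1g was at 7.47, 8.02 and 7.40 in wild type and 4.51, 5.99 and 5.17 in knockout and fell by 2.41 ± 0.34 (adjusted p = 1.6e-06). Ces1f was at 7.61, 8.94 and 7.13 against 5.11, 5.26 and 4.81 and fell by 2.83 ± 0.34 (adjusted p = 4.0e-08). The Ces1 genes are close copies of each other, so each probe set may read more than its named gene. These 4 falls were the only calls among 48 measured oxidases, reductases and esterases, and 1.59% of all genes fell. Nqo1, the quinone reductase most often used as an Nrf2 marker, differed by -0.36 ± 0.21 (adjusted p = 0.41). Nqo1 was at 7.02, 7.43 and 7.35 in wild type and 6.89, 6.70 and 7.13 in knockout, with overlap.

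Iron and heme genes moved in both directions. Slc40a1, the iron exporter ferroportin, was at 9.24, 9.21 and 9.23 in wild type and 8.15, 8.38 and 8.26 in knockout and fell by 0.96 ± 0.19 (adjusted p = 0.00034, limma). Alas1, the first enzyme of heme synthesis, was at 11.69, 11.88 and 11.44 against 12.76, 12.11 and 11.95 and rose by 0.60 ± 0.14 (adjusted p = 0.0046). Cpox, a later enzyme of that pathway, rose by 1.04 ± 0.29 (adjusted p = 0.018) with no overlap between the groups. Both of these rises were lost with the actin covariate. Hmox1, which degrades heme, was lower in all 3 knockout lungs, at 8.37, 7.91 and 8.36 against 8.71, 8.49 and 8.63, but its difference of -0.40 missed the threshold (adjusted p = 0.31). Glo1, which clears methylglyoxal, fell by 0.36 ± 0.11 (adjusted p = 0.044) in 1 of 4 probe sets, and lost the call with the actin covariate.

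Among P450, glucuronosyl and sulfotransferase genes, 1 of 35 rose and 1 fell, while of all genes 3.2% rose and 1.59% fell. Cyp1a1, the P450 induced through the aryl hydrocarbon receptor, was at 5.17, 5.87 and 5.43 in wild type and 7.43, 6.95 and 6.98 in knockout. Every knockout lung was higher, and Cyp1a1 rose by 1.63 ± 0.41 (adjusted p = 0.0070, limma), although the call was lost with the actin covariate. Cyp26b1, which degrades retinoic acid, fell by 1.36 ± 0.34 (adjusted p = 0.0080), but its groups overlapped, at 9.63, 8.89 and 10.72 against 6.93, 9.28 and 8.95. Without knockout replicate 1 or wild-type replicate 3 the Cyp26b1 call was lost.

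**Figure D3:**
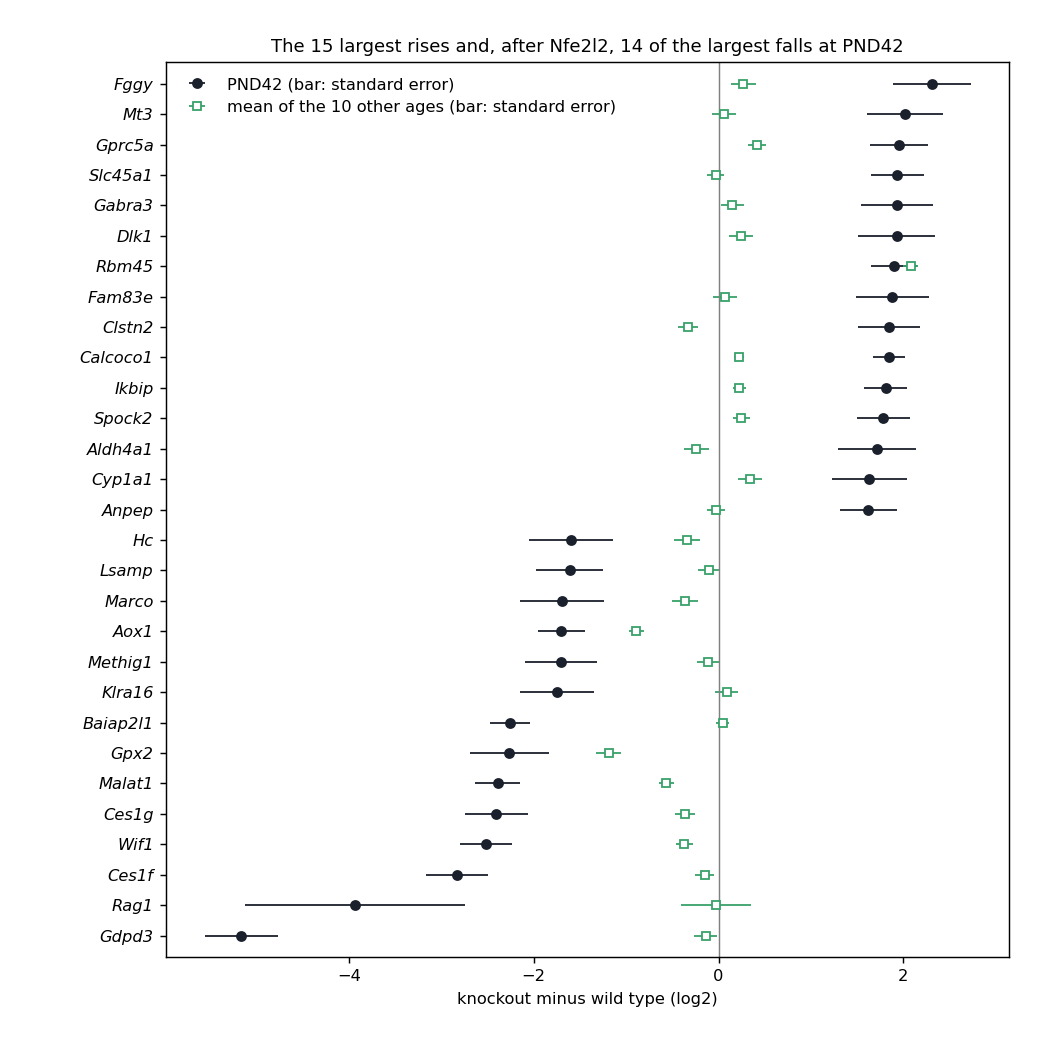
Knockout minus wild type (log2) for the 15 genes with the largest rises and, after Nfe2l2, 14 of the 15 with the largest falls at PND42 (black points, bars are standard errors) beside the mean difference over the 10 other ages (green squares). Gdpd3 lies at -5.16 at PND42 and -0.14 at the other ages, while Rbm45 lies near 2 in both.

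After Nfe2l2, the largest fall was in Gdpd3, an enzyme of the glycerophosphodiester phosphodiesterase family that acts on lysophospholipids. It was at 11.88, 11.79 and 11.80 in the wild-type lungs and 7.46, 7.21 and 5.32 in the knockout lungs. The gap between the groups was thus over 4 log2 units wide at its narrowest, and the fall was 5.16 ± 0.40 (adjusted p = 8.9e-14, limma; 35.8-fold). Only 1 probe set reads Gdpd3. Wif1, a secreted inhibitor of Wnt ligands, was at 10.48, 10.07 and 9.93 in wild type and 7.25, 7.86 and 7.83 in knockout, and fell by 2.51 ± 0.28 (adjusted p = 6.6e-09). Rag1, the recombinase of developing lymphocytes, was at 10.16, 8.28 and 7.39 against 5.59, 4.08 and 4.35 and fell by 3.94 ± 1.19 (adjusted p = 0.035). The Rag1 call rested on a wide spread and was lost in 10 of 23 alternative settings, among them those without wild-type replicate 1 or 2 or knockout replicate 2 or 3 and that with the actin covariate. At PND14 Rag1 differed by -4.77 (adjusted p = 0.0079, limma), and at PND2 and PND4 by 4.17 and 3.30.

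Among the largest falls, Malat1 and Baiap2l1 were called in more than 1 probe set. Malat1, an abundant long noncoding RNA of the nucleus, was at 14.69, 14.58 and 14.44 in wild type and 12.50, 12.03 and 12.01 in knockout and fell by 2.39 ± 0.24 (adjusted p = 8.7e-10, limma). It fell in 5 of 7 probe sets, while the others differed by -0.47 and -0.18. Baiap2l1, an adaptor that links membrane curvature to actin, was at 11.19, 11.33 and 11.46 against 9.02, 9.12 and 9.08 and fell by 2.26 ± 0.21 (adjusted p = 1.1e-10), with -2.41 in its second probe set. In both genes every knockout lung was below every wild-type lung. Other genes among the 15 largest falls were Klra16 of the Ly49 receptor family (-1.75), Methig1 (-1.70), the adhesion protein gene Lsamp (-1.61) and Hc, which encodes complement C5 (-1.60), besides Marco, Gpx2, Aox1, Ces1f and Ces1g. Hc was bright in all lungs, at 12.62, 12.36 and 12.69 in wild type and 11.00, 10.72 and 11.16 in knockout.

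Fggy, a carbohydrate kinase, had the largest rise. It was at 5.68, 5.82 and 4.83 in wild type and 7.85, 7.57 and 7.83 in knockout and rose by 2.31 ± 0.42 (adjusted p = 0.00015, limma). Mt3, a metallothionein, was at 5.95, 6.91 and 6.48 against 8.65, 8.15 and 8.58 and rose by 2.02 ± 0.41 (adjusted p = 0.00077). At PND14 Mt3 differed by 2.24 (adjusted p = 0.00036, limma). Of the 15 largest rises, Gprc5a and Spock2 were those with a wild-type mean above 10. Gprc5a, a retinoic-acid-inducible membrane receptor of lung epithelium, was at 10.79, 10.67 and 10.11 in wild type and 12.03, 12.59 and 12.80 in knockout and rose by 1.95 ± 0.32 (adjusted p = 2.2e-05). Spock2, a secreted proteoglycan of the matrix, was at 10.27, 10.19 and 10.13 against 11.28, 12.34 and 12.33 and rose by 1.78 ± 0.29 (adjusted p = 2.2e-05), but its second probe set differed by -0.17. In all 4 of these genes no knockout lung overlapped a wild-type lung.

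Calcoco1, a receptor for selective autophagy, was at 8.78, 8.42 and 8.89 in wild type and 10.33, 10.71 and 10.59 in knockout and rose by 1.85 ± 0.17 (adjusted p = 1.0e-10, limma). Anpep, the surface aminopeptidase N, was at 6.72, 6.64 and 6.76 against 8.14, 8.11 and 8.72 and rose by 1.62 ± 0.31 (adjusted p = 0.00033). Clstn2, a calsyntenin, was at 7.62, 9.08 and 7.43 against 9.87, 9.87 and 9.93 and rose by 1.85 ± 0.34 (adjusted p = 0.00015), in both of its probe sets. Wild-type replicate 2 lay higher than its group mates for Clstn2 and also for Ikbip (7.42, 9.11 and 7.50 against 9.75, 9.84 and 9.86). Dlk1, a Notch-ligand-like growth regulator of fetal tissues, was at 7.97, 6.92 and 6.51 in wild type and 10.04, 8.52 and 8.62 in knockout and rose by 1.93 ± 0.41 (adjusted p = 0.0014). The sugar transporter gene Slc45a1 (1.93), the GABA receptor subunit gene Gabra3 (1.93), Fam83e (1.88) and the mitochondrial dehydrogenase gene Aldh4a1 (1.71) completed the 15, with Rbm45 and Cyp1a1. The Aldh4a1 rise was lost without wild-type replicate 2 and with the actin covariate.

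Macrophage genes were lower in the knockout where they were called. Of 19 measured alveolar macrophage markers 4 fell and 0 rose, and the median difference was -0.30; of all genes 1.59% fell and 3.2% rose, with a median of 0.05. Marco, a scavenger receptor for particles and bacteria, was at 7.83, 8.40 and 8.30 in wild type and 6.68, 6.16 and 6.60 in knockout and fell by 1.70 ± 0.45 (adjusted p = 0.013, limma). Pparg, a nuclear receptor that these cells need to mature, was at 7.16, 7.19 and 7.13 against 5.88, 5.86 and 5.59 and fell by 1.38 ± 0.32 (adjusted p = 0.0031). Il1rn, the interleukin 1 receptor antagonist, was at 7.24, 6.87 and 7.38 against 5.73, 6.02 and 5.48 and fell by 1.42 ± 0.28 (adjusted p = 0.00040). Its other, dimmer probe sets differed by -0.23 and -0.22 (adjusted p = 0.81 and 0.90, limma) with overlapping groups. Abcg1, a cholesterol exporter, fell by 0.58 ± 0.17 (adjusted p = 0.023), while its second probe set differed by 0.07 with overlapping groups. The mean log2 level over all 19 markers was 9.16, 9.32 and 9.36 in the wild-type lungs and 8.98, 8.89 and 8.79 in the knockout lungs. Other defining markers of the cells had no call: Siglecf differed by -0.37 (adjusted p = 0.71), Chil3 by -0.26 (adjusted p = 0.90) and Mrc1 by -0.37 (adjusted p = 0.22), each with overlapping groups. With the actin covariate the calls of Marco, Pparg and Abcg1 were lost and that of Il1rn was kept.

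Elsewhere among leukocyte genes, calls were few. Cx3cr1, the fractalkine receptor of monocytes, was at 9.35, 8.85 and 9.09 in wild type and 8.20, 8.06 and 8.41 in knockout and fell by 0.87 ± 0.22 (adjusted p = 0.0073, limma), the 1 call among 19 monocyte and interstitial macrophage genes. A second, dim Cx3cr1 probe set differed by -0.36 (adjusted p = 0.70, limma) with overlapping groups. Il1b, the inflammatory cytokine, was at 9.42, 8.61 and 9.54 against 7.79, 7.89 and 8.18 and fell by 1.24 ± 0.27 (adjusted p = 0.0017), the 1 call among 29 genes of neutrophils and acute inflammation. Both had every knockout lung below every wild-type lung, and the Cx3cr1 call was lost with the actin covariate. None of the 21 B cell, 26 T and NK cell, 18 dendritic and mast cell, 18 MHC class I or 35 interferon-response genes was called by limma, and 8 of these 118 genes had an unadjusted p under 0.05, a share below the 15.9% of all genes that had one. Of the 26 T and NK cell genes, 7 had all knockout values below all wild-type values and 0 had them above. Over all genes these shares were 10.1% and 16.3%. The T and NK cell list had means of 7.61, 7.20 and 7.65 in wild type and 7.08, 7.11 and 7.13 in knockout. Its median difference was -0.33. Counted alike, 6 of 19 monocyte and interstitial macrophage genes lay below and 2 above. Of 18 dendritic and mast cell genes 0 lay below and 5 above. For the thymocyte genes, 5 of 9 had all knockout values below all wild-type values, against 10.1% of all genes. Of the 9, 1 fell, Rag1, and of all genes 1.59% fell. The mean over the thymocyte list was 7.99, 6.81 and 6.82 in wild type and 6.05, 5.94 and 6.11 in knockout. Cd8b1 differed by -1.81 (adjusted p = 0.41), Dntt by -1.23 (adjusted p = 0.48) and Rag2 by -1.35 (adjusted p = 0.45). Wild-type replicate 1 was the highest lung of the list, and the part of thymic tissue in the Rag1 difference was not tested.

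In the MHC class II pathway 2 of 12 genes fell (1.59% of all genes did), both with 1 knockout lung apart from its group mates. H2-Eb1, a class II beta chain, was at 12.00, 11.09 and 12.26 in wild type and 8.22, 8.02 and 11.21 in knockout. Knockout replicate 3 stood with the wild-type lungs, about 3 log2 units above its group mates, and the difference was -2.63 ± 0.58 (adjusted p = 0.0018, limma). H2-DMb2, a peptide-loading chain, was at 9.14, 8.70 and 8.93 against 6.86, 7.04 and 8.66 and fell by 1.40 ± 0.43 (adjusted p = 0.036), with the same lung apart. H2-Ab1 and H2-Aa, which share the pathway, differed by 0.03 and -0.30 with overlapping groups. Cd74, the invariant chain, lay higher in all 3 knockout lungs (12.88, 13.13 and 13.35 against 11.96, 11.76 and 12.21) without passing the test (1.14 ± 0.45, adjusted p = 0.14). When the 6 PND42 arrays were fitted alone, neither H2-Eb1 nor H2-DMb2 passed. H2-Eb1 kept its call with each single lung left out, whereas H2-DMb2 lost it with any lung but knockout replicate 3 left out and also with the actin covariate.

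Among 30 measured immediate early genes, which respond quickly to signals, 2 fell, and 1.59% of all genes fell. Fos was at 10.91, 10.92 and 11.44 in wild type and 9.88, 10.02 and 9.87 in knockout and fell by 1.17 ± 0.27 (adjusted p = 0.0030, limma). Egr1 was at 11.36, 11.43 and 11.74 against 10.08, 10.83 and 10.77 and fell by 0.95 ± 0.28 (adjusted p = 0.029), a call lost with the actin covariate. Jun, Junb and Fosb differed by 0.08, 0.07 and -0.23 with overlapping groups. Clock genes gave 2 rises among 21 measured, and 3.2% of all genes rose. Dbp, a transcription factor driven by the clock, was at 8.07, 8.32 and 8.30 in wild type and 10.09, 9.59 and 8.51 in knockout and rose by 1.17 ± 0.24 (adjusted p = 0.00094), and Nr1d2, a repressor of the same loop, was at 10.79, 10.98 and 10.60 against 12.17, 11.62 and 11.21 and rose by 0.88 ± 0.20 (adjusted p = 0.0030). In both genes knockout replicate 1 was highest and replicate 3 nearest to wild type. Per1, Per2 and Per3 differed by 0.58, 0.50 and 0.53 and Nr1d1 by 1.11, none past the threshold, and Arntl, whose rhythm runs opposite, differed by -0.35 (adjusted p = 0.36). Genes that respond to glucocorticoids gave no call among 18 measured, but 9 of them were higher at an unadjusted p under 0.05, against 10% of all genes, and the list median was 0.46 against 0.05. Their mean log2 level was 10.06, 10.01 and 9.98 in the wild-type lungs and 10.95, 10.27 and 10.05 in the knockout lungs. Knockout replicate 1 was thus the highest lung here too, as for Zbtb16, at 8.90, 8.20 and 7.68 against 11.45, 9.22 and 8.30. Without that lung the Nr1d2 call was lost (0.62) and that of Dbp was kept (0.82). The labels give no hour of lung collection.

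Protein quality genes gave calls in both directions. In the endoplasmic reticulum, Pdia3, a disulfide isomerase, was at 12.78, 12.77 and 12.94 in wild type and 12.37, 12.16 and 12.10 in knockout and fell by 0.62 ± 0.10 (adjusted p = 3.2e-05, limma). The chaperones Sdf2l1, Hspa5 and Pdia6 fell by 0.67, 0.43 and 0.41 (adjusted p = 0.028, 0.015 and 0.043), and the heat shock gene Hspa1b rose by 0.82 (adjusted p = 0.015), which made 4 falls and 1 rise among 30. The other Hspa5 probe sets differed by -0.004 and 0.40 and the second of Pdia6 by 0.32, none of them called. Hspa5 and Pdia6 lost the call in 9 and 12 of 23 alternative settings. Sdf2l1 and Hspa1b lost the call with the actin covariate. Of 32 proteasome subunits 3 rose and 0 fell, with a list median of -0.07. Over all genes 3.2% rose and 1.59% fell, with a median of 0.05. Psmb7, a catalytic subunit, was at 9.94, 9.48 and 9.87 in wild type and 10.96, 11.38 and 11.40 in knockout and rose by 1.49 ± 0.24 (adjusted p = 2.6e-05). The ATPase subunits Psmc4 and Psmc2 rose by 0.58 and 0.43 (adjusted p = 0.0077 and 0.00011), and Psmc4 lost the call with the actin covariate. Their next brightest probe sets differed by -0.01 for Psmc4 and 0.07 for Psmc2, with overlapping groups and no call.

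Markers of the structural cell types of the lung gave few calls. None of the 16 club cell, 16 type 1 cell, 22 ciliated cell, 11 neuroendocrine or 18 smooth muscle and pericyte markers was called by limma, and 5 of these 83 genes had an unadjusted p under 0.05 (15.9% of all genes did). The club cell secretoglobin Scgb1a1 sat at the ceiling of the normalized scale (14.99) in 5 of the 6 lungs, so a difference in it could not have been read. Foxj1, the master factor of motile cilia, was at 8.62, 8.56 and 8.40 in wild type and 9.43, 9.46 and 9.10 in knockout, a difference of 0.80 that missed the threshold (adjusted p = 0.086). For this and the next lists, 3.2% of all genes rose and 1.59% fell. Of 23 type 2 cell and surfactant genes, Fabp5 and Cebpa rose by 0.47 and 0.68 (adjusted p = 0.0093 and 0.044) and Lpcat1, which makes surfactant phospholipid, fell by 0.58 (adjusted p = 0.043). Of 43 matrix genes, Col1a2 and Fn1 fell by 0.44 and 0.41 (adjusted p = 0.019 and 0.038) and Col15a1 rose by 1.00 (adjusted p = 0.0013). The next brightest probe sets of Col1a2 and Fn1 differed by -0.11 and 0.03 with overlapping groups. All knockout values lay below all wild-type values in 16 of the 43 matrix genes and above them in 4, against 10.1% and 16.3% of all genes. Cebpa, Lpcat1 and Fn1 each lost their call in 12 to 14 of 23 alternative settings, and Cebpa, Fn1, Fabp5 and Col15a1 lost theirs with the actin covariate. Of 36 genes of cholesterol and fatty acid synthesis, Pparg and the desaturase gene Fads2 fell, the latter by 0.55 (adjusted p = 0.042, limma), and of 20 hypoxia-response genes Hif1a fell by 0.33 (adjusted p = 0.0082), a call lost with the actin covariate and without wild-type or knockout replicate 3. The 31 cell cycle genes had no call and a median of -0.31, with 11 of them lower in all knockout lungs and 3 at an unadjusted p under 0.05; over all genes the median was 0.05 and 10.1% were lower in all knockout lungs. No gene was called in the heart, skeletal muscle, oesophagus, cartilage, liver, adipose or erythroid lists, which mark tissue that can be cut out with a lung, and 4 of those 83 genes had an unadjusted p under 0.05, again below the 15.9% of all genes. The lack of calls does not show equal amounts of such tissue, because lungs of 1 genotype could vary. The heart list had mean log2 levels of 10.25, 10.94 and 10.32 in wild type and 10.72, 10.48 and 9.06 in knockout.

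Genes that lie beside Nfe2l2 on chromosome 2 were also read as a group. Of the 100 nearest measured genes, 7 were called (7%), against 5.01% on the rest of chromosome 2 and 4.79% of all genes. Rbm45, an RNA-binding protein gene, lies the 8th measured gene from Nfe2l2. It was at 8.44, 8.57 and 9.11 in wild type and 10.51, 10.56 and 10.75 in knockout and rose by 1.90 ± 0.25 (adjusted p = 3.0e-07, limma). Its mean difference over the other ages was 2.08. Fam171b was at 8.38, 8.40 and 8.24 against 6.83, 7.09 and 7.02 and fell by 1.36 ± 0.33 (adjusted p = 0.0052), with -0.93 at the other ages. Zc3h15 (-0.79), Cwc22 (-0.62) and Tfpi (-0.43) also fell and Ctnnd1 (0.57) and Itgav (0.52) rose. The other ages gave Zc3h15 -0.24, Cwc22 -0.36, Tfpi -0.28 and Ctnnd1 0.22, each called there with the sign it had at PND42, and Itgav 0.00 (adjusted p = 0.98). With the actin covariate the calls of Tfpi, Ctnnd1 and Itgav were lost.

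The adult lungs share no sample with the other 10 ages, so those ages give a second reading of the same genes. Of the 290 genes that fell at PND42, 214 had a negative mean difference over the other ages (73.8%, against 47.9% of all genes). There 68 of them fell (23.4%, against 4.37% of all genes) and 12 rose (4.14%, against 5.75%). Of the 582 that rose, 363 had a positive mean difference (62.4%, against 52.1% of all genes). At the other ages 98 of these rose (16.8%, against 5.75% of all genes) and 32 fell (5.5%, against 4.37%). The sizes differed: the median of the falls was -0.63 at PND42 and -0.07 at the other ages, and that of the rises 0.67 and 0.04. The genes were selected by their PND42 values, so the larger PND42 median is partly a matter of selection. A test of the PND42 difference against the mean of the other ages called 720 of 18193 genes (3.96%) and 2147 of all probe sets (4.77%).

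**Figure D4:**
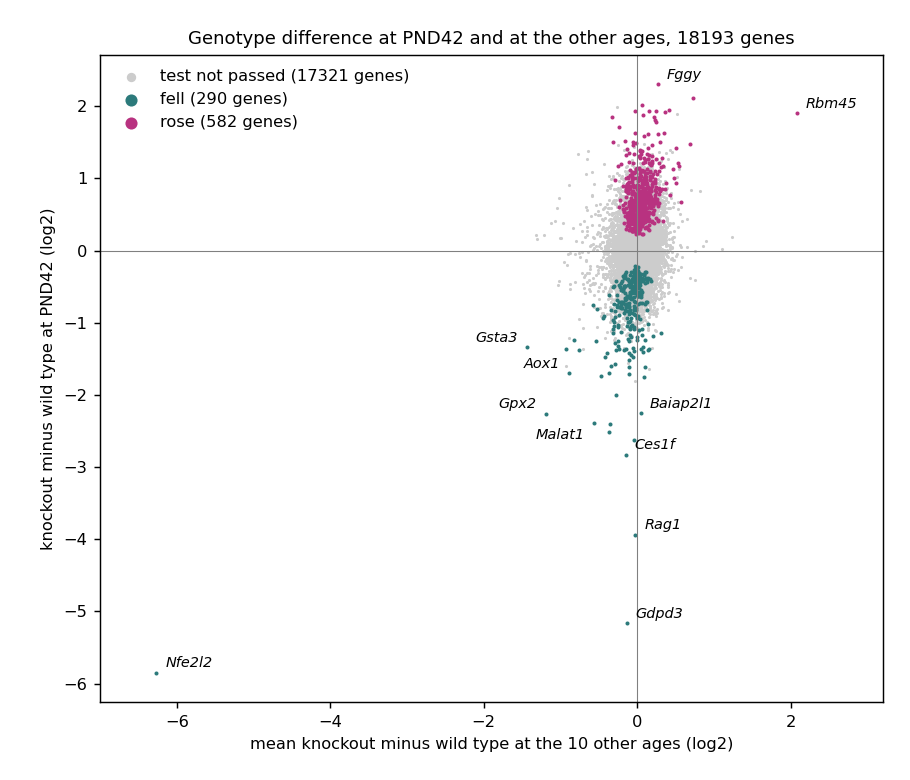
Each of 18193 genes by its mean knockout minus wild-type difference over the 10 other ages (horizontal, log2) and at PND42 (vertical, log2); colours mark the 290 genes that fell and the 582 that rose at PND42. Nfe2l2, Gsta3, Gpx2, Aox1 and Rbm45 lie away from 0 on both axes, whereas Gdpd3, Rag1, Ces1f and Baiap2l1 lie near 0 on the horizontal axis. For Rag1 that mean covers differences of both signs, from -4.77 at PND14 to 4.17 at PND2.

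The 10 listed Nrf2 targets that fell at PND42 were also set against the other ages. Gsta3 differed by -1.44 over the other ages, and the test of PND42 against them gave an adjusted p of 0.95 (limma). For Gpx2 (-1.19 at the other ages), Gstm1 (-0.57), Aox1 (-0.89) and Pgd (-0.18) the test gave adjusted p of 0.20, 0.79, 0.068 and 0.22. Falls at PND42 larger than the mean over the other ages were called for Gclc (-1.29 against -0.29, adjusted p = 1.3e-06), Txnrd1 (-1.03 against -0.25, adjusted p = 0.00016) and Me1 (-1.25 against -0.54, adjusted p = 0.0024). The same was called for Ces1g (-2.41 against -0.36, adjusted p = 0.00012) and Gsr (-0.57 against 0.03, adjusted p = 0.032). The test does not compare PND42 with each single age, and Me1 differed by -1.29 at PND0. Tested against PND14 alone, Gclc and Ces1g passed. Txnrd1, Me1 and Gsr did not (adjusted p = 0.52, 0.083 and 0.078, limma), and their PND14 differences were -0.74, -0.55 and 0.23. Among the other large changes, Gdpd3 (adjusted p = 2.6e-12), Baiap2l1 (3.7e-10) and Ces1f (9.4e-07) differed from their means over the other ages, which were -0.14, 0.05 and -0.15. For Rbm45 the same test gave an adjusted p of 0.84.

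**Figure D5:**
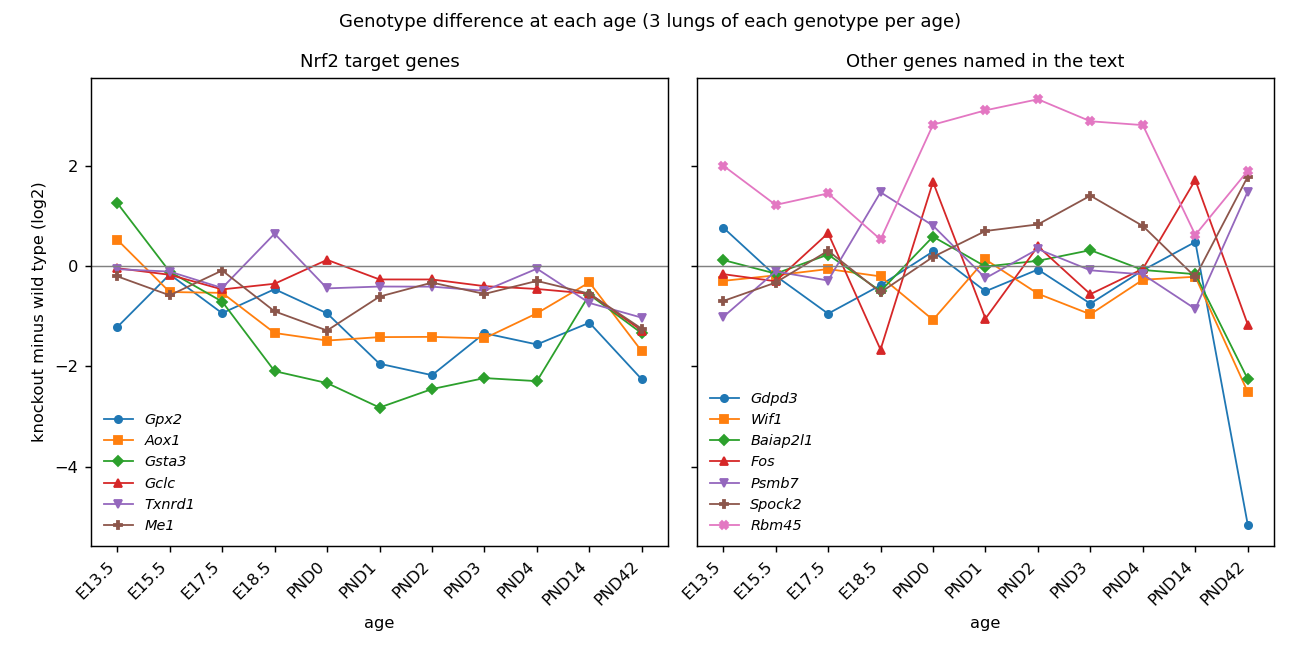
Knockout minus wild-type difference (log2) at each of the 11 ages for 6 Nrf2 target genes (left) and 7 other named genes (right), each point from 3 lungs of each genotype. Gdpd3 stays between -0.95 and 0.77 up to PND14 and reaches -5.16 at PND42, and Gsta3 lies below -2 from E18.5 to PND4.

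PND14 is the nearest age, and there the difference between genotypes was compared gene by gene with that at PND42. This test called 251 of 18193 genes (1.38%). Of 22 named genes it called, 10 kept the call whichever 1 of the 12 lungs of both ages was left out, among them Gdpd3, Fos, Psmb7 and Il1b. It called 32 of the 290 genes that fell at PND42 and 115 of the 582 that rose. These genes were selected by their PND42 difference, which this test also uses. A share above 1.38% among them is therefore partly a matter of selection. Among the named genes Gdpd3 differed most, with 0.48 at PND14 and -5.16 at PND42. Mt3, Cyp1a1, Hc and Malat1 were not called in the test between these ages. Their PND14 differences were 2.24, 3.12, -1.63 and -1.71. Fos and Psmb7 passed the test at both ages with opposite signs: Fos was 1.72 higher in the knockout at PND14 and lower at PND42, and Psmb7 was lower at PND14 (-0.85) and higher at PND42. Il1b likewise was higher at PND14 (0.86, adjusted p = 0.037, limma) and lower at PND42. The PND14 knockout lungs had actin 3′ to 5′ log2 ratios of 0.77, 1.44 and 1.56 against 0.91, 0.53 and 0.79 in wild type, and all 3 of them but 1 of 3 wild-type lungs showed high Xist. The count of this test depended strongly on the PND14 wild-type lungs, and over all probe sets it was 544 (1.21%) with all arrays, 1973 without wild-type PND14 replicate 1 and 285 without replicate 2.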

How the data were processed

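The authors' deposited table holds 1 intensity per probe set and array, for which the submitters' processing notes name GCOS. Version, algorithm and scaling are not given in the sources used here, and the number of arrays limits the precision. The deposited values were not on 1 scale. Their trimmed mean was 500 on the 42 arrays of 7 ages, PND42 among them, and 172 to 307 on those of PND1 to PND4. Those ages are part of the other 10 ages. A fit of the 42 arrays alone called 2242 probe sets at PND42. Of 45101 probe sets, 64 controls were left out of the tests, and 34945 of the 45037 tested carry 1 gene symbol in GEO's platform annotation. Intensities were quantile normalized, 16 was added and log2 taken. Group means of all 22 groups were fitted with limma 3.58.1 (R 4.3.3; empirical Bayes with an intensity trend, two-sided), and the script was tested on simulated data. A gene was named if it was Nfe2l2, among the 15 largest rises or falls with groups apart (predicted, unnamed and sex-linked genes passed over), a list member, a called neighbour of Nfe2l2, or among the 5 largest of each sign in a contrast between ages; other genes were named after their values were seen. Members and lists were chosen with earlier results of these data known. Alternatives were other normalizations, offsets, filters, sample sets, covariates, array weights and leaving out each lung. Only sequences in the RefSeq tables were used. One gene that the naming rule selected is not reported here.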

Additional observations from a re-analysis of the deposited data

Results flagged for a closer look

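For the genes below, the genotype difference at PND42 differed from that at PND14 in the test of the difference itself (limma, adjusted p under 0.05); each value is the PND42 difference minus the PND14 difference on the log2 scale. The values were lower at PND42 for Gdpd3 (-5.64), Ces1f (-2.99), Fos (-2.88), Wif1 (-2.30), Baiap2l1 (-2.09), Il1b (-2.09), Ces1g (-1.92), Cyp26b1 (-1.86), Egr1 (-1.63), Il1rn (-1.55), Aox1 (-1.38), Gclc (-0.74) and Fn1 (-0.65). They were higher at PND42 for Exosc1 (3.48), Slc45a1 (2.58), Psmb7 (2.34), Shf (2.29), Smad9 (2.17), Spock2 (2.00), Calcoco1 (1.70), Col15a1 (1.21) and Btrc (1.07). Exosc1, a subunit of the RNA exosome, Shf, an adaptor protein, and Smad9, a mediator of bone morphogenetic protein signals, were called in this test and not at PND42 itself, where their differences were 1.46, 1.16 and 1.09. At PND14 they were -2.02, -1.13 and -1.08. With single lungs of either age left out, Gdpd3, Ces1f, Wif1, Baiap2l1, Slc45a1, Calcoco1, Spock2, Fos, Psmb7 and Il1b kept the call in this test in each of the 12 cases. The other 12 of the 22 genes lost it in at least 1: 9 genes without wild-type PND14 replicate 2 (Ces1g, Aox1, Exosc1, Shf, Fn1, Gclc, Cyp26b1, Btrc and Il1rn), 4, 7 and 6 without knockout PND14 replicates 1, 2 and 3, and 3 to 8 without a PND42 lung. Fn1 lost it in 9 cases, Aox1 in 7, Ces1g, Shf and Cyp26b1 in 6, Gclc, Col15a1 and Il1rn in 5, Smad9 in 4, Exosc1 and Egr1 in 3 and Btrc in 2.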

How the results depend on the processing

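None of the 78 named genes called at PND42 changed sign under the alternatives run for it, and Nfe2l2, Gdpd3, Wif1, Malat1, Gpx2, Baiap2l1, Aox1, Gclc, Txnrd1, Me1, Slc40a1, Fggy, Mt3, Gprc5a, Calcoco1, Spock2, Anpep, Psmb7, Slc45a1, Rbm45, Clstn2 and Fos kept their calls in all 23, as did Ces1f, Ces1g and Il1rn in the 22 run for them (they were left out with the dim probe sets). The 2557 probe sets called at PND42 became 3969 with array weights, 360 when only the 12 arrays of PND14 and PND42 were fitted, 1497 with the actin 3′ to 5′ ratio as a covariate (chosen after seeing the data) and 793 with 1 probe set per gene, where fewer were tested; the range was 1585 to 2470 with single lungs left out, lowest without knockout replicate 3. The 582 genes that rose became 921, 84 and 384 under the first 3 of these (335 to 567 with lungs left out), and the 290 that fell became 561, 35 and 167, or 171 with array medians scaled (166 to 280 with lungs left out). The 10 Nrf2 targets that fell became 6 in the fit of 12 arrays and 6 to 9 with lungs left out. The test of PND42 against PND14 called 544 probe sets, 327 with array medians scaled and 285 to 1973 with lungs left out; it was 1973, 285 and 1205 without wild-type PND14 replicates 1, 2 and 3. The test against the other 10 ages called 2147, 43.1% of them higher, and 58.5% were higher with the deposited values left unnormalized; with lungs left out it called 1188 to 2132. The causes were not tested. Replicate numbers did not pair the samples (correlations of their deviations from the group means of 0.003 to 0.027 at PND42), and with the replicate block the tests called 2335, 386 and 1838 probe sets. Dim signal limits the genes near background, where the offset of 16 shrinks differences.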

Other observations

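Some of the largest differences at PND42 were in probe sets to which the platform annotation gives no gene. Probe set 1456182_x_at was at 4.22, 4.32 and 4.18 in the wild-type lungs and 10.48, 11.74 and 11.59 in the knockout lungs, a difference of 7.03 ± 0.35 (adjusted p = 6.8e-21, limma), larger than that of Nfe2l2 and of opposite sign. Probe sets 1433438_x_at (5.91) and 1456456_x_at (4.40) behaved alike in the same 3 lungs, at 10.42, 11.29 and 11.49 and at 8.46, 9.63 and 9.64. Over the other 10 ages these 3 differed by -0.03, -0.16 and -0.08. Probe sets 1455869_at (5.34) and 1431213_a_at (4.45) had means of 2.52 and 2.38 at the other ages, but these were uneven: 1455869_at ranged from -1.14 at E13.5 to 7.29 at PND0 and 1431213_a_at from -1.07 to 6.64 at the same ages. In the other direction, 1458505_at differed by -4.24, 1421279_at by -3.18 and 1421802_at by -2.98, with means of -1.10, -1.94 and -0.47 at the other ages.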
